A study of Homo sapiens with 12 samples.

Results

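Alpha and beta tubulin are the paired building blocks of microtubules, and 10 of their genes were followed here in the human colorectal carcinoma line HCT116 after loss of an RNA polymerase subunit or arrest of transcription. The members were the rows of the deposited count table whose Ensembl identifier maps to TUBA1A, TUBA1B, TUBA1C, TUBA4A, TUBB, TUBB2A, TUBB2B, TUBB3, TUBB4B or TUBB6. They are 4 alpha and 6 beta genes among 63241 genes of the table. Of these, 9 passed the filter on low counts that left 23593 genes for testing, and TUBB2B did not.

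One alpha and one beta chain join into a dimer, and dimers stack end to end into the wall of the microtubule, the filament that carries organelles, builds the mitotic spindle and supports cilia. Vertebrates make each chain from several genes, called isotypes, which differ mainly in their acidic tails and in the tissues that use them. Cells also adjust tubulin mRNA to the supply of free dimer. When free dimer is plentiful, TTC5 binds the first residues of a tubulin chain as it leaves the ribosome and, through SCAPER and the CNOT11 arm of the CCR4-NOT deadenylase, has the mRNA degraded.

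Total RNA without ribosomal RNA was sequenced in 12 libraries, 3 for each of 4 groups. In the ActD group, wild-type HCT116 cells had actinomycin D, a DNA-binding drug that blocks transcription, at 5 µg/mL for 6 h. In the Pol1 group, HCT116 cells with an auxin-inducible degron on endogenous POLR1A, the largest subunit of RNA polymerase I, had 500 µM indole-3-acetic acid for 8 h, with doxycycline at 1 µg/ml from 24 h earlier to induce the plant receptor OsTIR1. In the Pol2 group, HCT116 cells with the AID2 degron on endogenous POLR2A, the largest subunit of RNA polymerase II, had 5-phenyl-indole-3-acetic acid at 1 µM for 8 h. The control group (ctrl) was wild-type HCT116 with DMSO for 8 h. The design text names the relation between transcription by both polymerases and genome organization as the question, with coding and non-coding transcripts as the readout.

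Replicates were separate dishes of one day, called technical in the labels, so p-values measure no more than the spread between dishes. Neither degron line had libraries without ligand here, so line, inducer, ligand and depletion cannot be told apart in a comparison with wild-type controls. Between treatments, line, ligand and inducer also differ together with the polymerase or drug, so they cannot be told apart there either. By the titles, ActD at 6 h also differs in time from all other groups, including its controls, at 8 h. Times above are those of the sample titles; the extraction protocol states 6 h for every condition. RNA from fewer cells and less RNA per cell cannot be told apart in these bulk samples.

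Estimated counts per library summed to 20302228 to 27394059 in ActD, 18797087 to 21802364 in Pol1, 11289272 to 15037531 in Pol2 and 12235119 to 17535790 in the controls. The share of the 13 mitochondrial mRNAs moved with the groups. It was 3.42 to 3.54% in ActD, 5.58 to 5.98% in Pol1, 8.68 to 10.4% in Pol2 and 6.06 to 8.17% in the controls. A degron removes protein, so the mRNA of POLR1A, at 191 ± 13.2 CPM in ActD, 148 ± 3.04 CPM in Pol1, 134 ± 6.82 CPM in Pol2 and 237 ± 9.86 CPM in the controls (SD, n = 3 each), does not check the labels, and neither does that of POLR2A. The mRNA of POLR2A was at 585 ± 31.8 CPM in ActD, 921 ± 21 CPM in Pol1, 1090 ± 19 CPM in Pol2 and 514 ± 46.4 CPM in the controls. It was higher than in the controls in all treated groups, by a log2 fold change of 0.19, 0.84 and 1.09. Levels are in CPM, counts put on one common library total by TMM scaling. Of 8 epithelial markers, EPCAM, KRT8, KRT18, KRT19 and CDH1 averaged 24.9 CPM or more in each group, CDX2 averaged 2.11 to 15.6 CPM, VIL1 at most 2.41 CPM, and LGALS4 was at 0 in every control library and at most 0.641 CPM on average in the other groups. The epithelial sum was 3200 to 3480 CPM in ActD, 1920 to 2060 CPM in Pol1, 2350 to 2560 CPM in Pol2 and 3510 to 3970 CPM in the controls. Blood markers, of which CD3E was at 0 in 11 libraries, summed to at most 5.69 CPM in any library. Endothelial and stromal markers summed to 11.2 to 12.7 CPM in ActD, 21.7 to 23.4 CPM in Pol1, 21.6 to 25.3 CPM in Pol2 and 7.85 to 8.53 CPM in the controls. COL1A1 made up most of each sum, and in Pol2 PECAM1 followed, at 0.065 ± 0.0711 CPM in ActD, 0.202 ± 0.111 CPM in Pol1, 7.92 ± 0.942 CPM in Pol2 and 0.163 ± 0.113 CPM in the controls (SD, n = 3 each; higher in Pol2, adjusted p = 2.6e-09). The part of these markers in the results below was not tested.

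All members start their reading frame with the short code that TTC5 reads on the nascent chain, and the first 30 coding bases are shown because they carry that signal and show how alike the members are. Capitals mark the first 4 codons, and the sequences come from the GENCODE 29 transcripts on GRCh38.
TUBA1A: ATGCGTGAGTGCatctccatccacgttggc
TUBA1B: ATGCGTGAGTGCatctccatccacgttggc
TUBA1C: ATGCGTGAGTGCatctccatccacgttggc
TUBA4A: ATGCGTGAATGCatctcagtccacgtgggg
TUBB: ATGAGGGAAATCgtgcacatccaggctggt
TUBB2A: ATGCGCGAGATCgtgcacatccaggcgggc
TUBB2B: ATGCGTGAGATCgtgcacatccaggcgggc
TUBB3: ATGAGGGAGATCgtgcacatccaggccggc
TUBB4B: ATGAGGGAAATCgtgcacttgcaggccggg
TUBB6: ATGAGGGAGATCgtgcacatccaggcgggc

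TUBA1A, TUBA1B and TUBA1C shared all of these bases, and their whole coding sequences were 95.9 to 97.2% identical, with a longest shared run of 326 bases between TUBA1B and TUBA1C. TUBB2A and TUBB2B were 98.2% identical, with a shared run of 725 bases. Such reads had to be divided between copies when the counts were estimated, so the values of these 5 genes depend most on that division. TUBA4A was 84.4 to 85.7% identical to the TUBA1 genes, and TUBB3 shared runs of 185 bases with TUBB2A and 140 bases with TUBB4B, so shorter shared stretches touch the other members too.

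Against the controls, the tubulin genes moved both ways in each group under TMM scaling. With actinomycin D, 4 of the 9 tested members were higher and 4 were lower, where 24.9% of all genes tested were higher and 28.5% lower. In Pol1, 4 were higher and 4 lower, against 20.6% and 18.6% of all genes. In Pol2, 2 were higher and 7 lower, against 33.2% and 28.2% of all genes. The median log2 fold change of the members was -0.09 in ActD, 0.04 in Pol1 and -0.35 in Pol2, beside -0.06, 0.01 and 0.08 over all genes tested. These 3 comparisons share the control libraries, so they are given side by side only. A call is an adjusted p under 0.05 in edgeR's quasi-likelihood test with Benjamini-Hochberg adjustment over all genes tested.

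Direction depends on what is held constant between groups. The share of the mitochondrial mRNAs itself moved with the groups, and whether the treatments changed these mRNAs was not tested. Scaling to them is therefore another reference and not a neutral one. Scaled to the mitochondrial mRNAs in place of TMM, the median of all genes moved by 0.88 in ActD, by 0.36 in Pol1 and by -0.29 in Pol2 on the log2 scale, and scaled to library totals it moved by -0.12, 0.04 and 0.12. With the mitochondrial scaling, 5 members were higher and 0 lower in ActD, 5 higher and 1 lower in Pol1, and 0 higher and 7 lower in Pol2. Of all genes called, the higher ones were then 85.2% in ActD, 85.1% in Pol1 and 38.6% in Pol2, where TMM gave 46.7%, 52.6% and 54.1%. The values below are those of TMM, and each member's direction that turns under another scaling is named with its value. For gene lists, counts under mitochondrial scaling are given beside those of TMM.

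**Figure D1:**
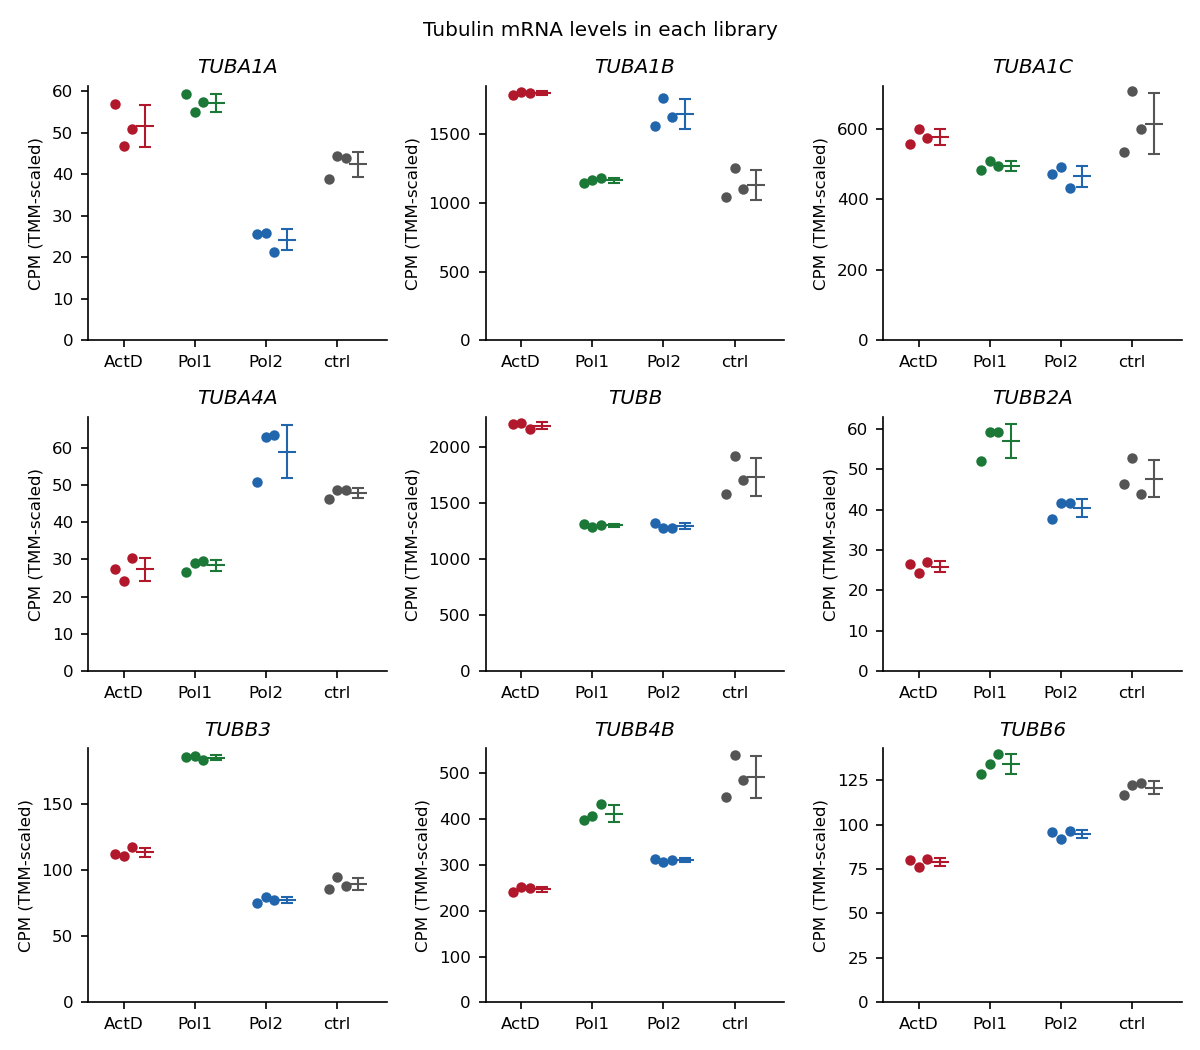
TMM-scaled CPM (vertical axis, from 0) of the 9 tested tubulin genes in each library (points), with the mean and SD of 3 libraries beside them, for ActD, Pol1, Pol2 and ctrl. TUBB3 stood at 183.2 to 186.6 CPM in Pol1, above every other library, and TUBB4B stood lowest in ActD on this scale, while mitochondrial scaling put ActD above Pol2.

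TUBA1B (ENSG00000123416, chr12:49127782-49131397, minus strand), the alpha isotype most cell types use, had the most reads of the alpha members. It had 1783, 1807 and 1798 CPM in ActD, 1145, 1166 and 1179 CPM in Pol1, and 1554, 1762 and 1619 CPM in Pol2, against 1042, 1251 and 1098 CPM in the controls. ActD and Pol2 libraries all lay above the controls, while the Pol1 libraries lay among them. TUBA1B was higher in ActD (log2 fold change 0.67 ± 0.06 SE, adjusted p = 4.6e-09) and in Pol2 (0.54 ± 0.06, adjusted p = 1.2e-07). In Pol1 the difference of 0.04 ± 0.06 did not pass (adjusted p = 0.644); it was -0.01 without control replicate 1 and 0.40 with mitochondrial scaling, which passed (adjusted p = 0.00765). Under that scaling the Pol2 value was 0.26 and did not pass (adjusted p = 0.0657).

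The gene shares 1309 exonic bases with TUBA1B-AS1, an antisense gene, and the strand setting of the counting is not given in the sources used here. TUBA1B-AS1 had 354 ± 47.2 CPM in ActD, 352 ± 38 CPM in Pol1, 378 ± 81 CPM in Pol2 and 371 ± 43.6 CPM in the controls (SD, n = 3 each), so the groups overlapped. Both genes together had 2150 ± 38.1 CPM in ActD, 1516 ± 26.2 CPM in Pol1, 2023 ± 95.9 CPM in Pol2 and 1502 ± 116 CPM in the controls.

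TUBA1C (ENSG00000167553, chr12:49188736-49274603, plus strand), is another widely used alpha isotype. It had 556.3, 599.1 and 572.8 CPM in ActD, 481.7, 508.5 and 493.4 CPM in Pol1, and 470.6, 491.3 and 432.2 CPM in Pol2, against 534.5, 707 and 600 CPM in the controls. Pol1 and Pol2 libraries lay below every control library, and ActD libraries lay within the control range. TUBA1C was lower in Pol2 (-0.40 ± 0.08, adjusted p = 0.000355) under each scaling, and lower in Pol1 (-0.31 ± 0.08, adjusted p = 0.00439), where mitochondrial scaling turned it to 0.05. In ActD the difference of -0.09 ± 0.08 did not pass (adjusted p = 0.351). It was -0.18 and passed without control replicate 1, was 0.02 without control replicate 2, was -0.21 and passed with library totals, and was 0.83 with mitochondrial scaling.

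TUBA1A (ENSG00000167552, chr12:49184796-49189324, minus strand), the isotype best known from developing neurons, is the least abundant of the TUBA1 genes here. It had 56.87, 46.86 and 50.98 CPM in ActD, 59.28, 54.98 and 57.28 CPM in Pol1, and 25.54, 25.82 and 21.39 CPM in Pol2, against 38.88, 44.36 and 43.87 CPM in the controls. No treated group overlapped the controls. TUBA1A was higher in Pol1 (0.43 ± 0.08, adjusted p = 0.000159) and in ActD (0.28 ± 0.08, adjusted p = 0.00589), and lower in Pol2 at 57.4% of the control level (-0.80 ± 0.09, adjusted p = 7.64e-08). The ActD call was lost without ActD replicate 1 (0.20, adjusted p = 0.0521) and with library totals (0.16, adjusted p = 0.0988). TUBA1A and TUBA1C lie on opposite strands and share 490 exonic bases. TUBA1C also shares 666 exonic bases with ENSG00000258232 on the other strand. That gene had 21.5 ± 15.9 CPM in ActD, 67.1 ± 10.4 CPM in Pol1, 39.9 ± 12.5 CPM in Pol2 and 37.5 ± 16 CPM in the controls.

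Because reads may have been divided unevenly, the summed TUBA1A, TUBA1B and TUBA1C level is also given. It was 2424 ± 28 CPM in ActD, 1715 ± 24.9 CPM in Pol1, 2134 ± 126 CPM in Pol2 and 1787 ± 198 CPM in the controls (SD, n = 3 each). ActD and Pol2 libraries lay above every control library, the lowest of them at 2051 CPM and the highest control at 2003 CPM, and Pol1 libraries lay within the control range.

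TUBA4A (ENSG00000127824, chr2:219249711-219278170, minus strand) encodes an alpha chain without the terminal tyrosine that other alpha chains carry. It had 27.49, 24.2 and 30.26 CPM in ActD, 26.66, 28.99 and 29.58 CPM in Pol1, and 50.67, 62.84 and 63.27 CPM in Pol2, against 46.29, 48.62 and 48.71 CPM in the controls. The ActD and Pol1 libraries lay below the controls and the Pol2 libraries above them. TUBA4A was lower in ActD at 56.9% of the control level (-0.81 ± 0.09, adjusted p = 8.86e-08), where mitochondrial scaling turned it to 0.11, and lower in Pol1 at 59.3% (-0.75 ± 0.09, adjusted p = 4.86e-07). It was higher in Pol2 (0.30 ± 0.09, adjusted p = 0.00557), a call lost without Pol2 replicate 2 (0.22, adjusted p = 0.064) and with mitochondrial scaling (0.02, adjusted p = 0.921). The antisense-strand gene STK16 shares 627 exonic bases with it and had 19.3 ± 0.415 CPM in ActD, 14.4 ± 1.31 CPM in Pol1, 16.3 ± 1.11 CPM in Pol2 and 13.3 ± 0.203 CPM in the controls.

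TUBB (ENSG00000196230, chr6:30720201-30725426, plus strand), the main beta isotype of dividing cells, had the most reads of all members in ActD, Pol1 and the controls. It had 2206, 2214 and 2161 CPM in ActD, 1312, 1290 and 1308 CPM in Pol1, and 1326, 1280 and 1281 CPM in Pol2, against 1581, 1918 and 1712 CPM in the controls. Pol1 and Pol2 libraries were all below the controls and ActD libraries all above them. TUBB was higher in ActD (0.34 ± 0.06, adjusted p = 3.14e-05) and lower in Pol1 (-0.41 ± 0.06, adjusted p = 3.62e-06) and Pol2 (-0.42 ± 0.06, adjusted p = 1.67e-06), the last 2 at 75.0% and 74.6% of the control level. With mitochondrial scaling the Pol1 difference was -0.06 and did not pass (adjusted p = 0.767).

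TUBB4B (ENSG00000188229, chr9:137241213-137243707, plus strand), a broadly used beta isotype also built into cilia, was lower in all treated groups, a direction that mitochondrial scaling turned in Pol1. It had 240, 251.6 and 248.9 CPM in ActD, 397.5, 406.2 and 432.3 CPM in Pol1, and 314, 306.5 and 311.6 CPM in Pol2, against 448.7, 540.1 and 485.5 CPM in the controls. The groups did not overlap, and on this scale ActD lay lowest. The fall was to 50.2% of the control level in ActD (-0.99 ± 0.06, adjusted p = 4.14e-12), where mitochondrial scaling gave -0.07 and no call, to 63.2% in Pol2 (-0.66 ± 0.06, adjusted p = 2.94e-09), and to 83.8% in Pol1 (-0.25 ± 0.06, adjusted p = 0.00108), where mitochondrial scaling turned it to 0.10.

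TUBB6 (ENSG00000176014, chr18:12307669-12344320, plus strand), a more divergent beta isotype found in many non-neuronal tissues, had 80.16, 76.24 and 80.68 CPM in ActD, 128.3, 134.2 and 139.8 CPM in Pol1, and 95.91, 91.81 and 96.35 CPM in Pol2, against 116.6, 122.1 and 123.6 CPM in the controls. No treated group overlapped the controls, with Pol1 above them and the others below. TUBB6 was lower in ActD (-0.61 ± 0.05, adjusted p = 1.54e-09), where mitochondrial scaling turned it to 0.30, and lower in Pol2 (-0.35 ± 0.05, adjusted p = 6.07e-06). In Pol1 it was higher by 0.15 ± 0.05 (adjusted p = 0.0223), a call lost without control replicate 1, Pol1 replicate 2 or Pol1 replicate 3, at 0.13, 0.15 and 0.12, and also with DESeq2's size factors (0.13, adjusted p = 0.078), with DESeq2's test (0.13, adjusted p = 0.0791) and with no filter on low counts (0.14, adjusted p = 0.18). AFG3L2, on the other strand, shares 837 exonic bases with it and had 87.1 ± 1.68 CPM in ActD, 71.9 ± 1.08 CPM in Pol1, 67.8 ± 5.88 CPM in Pol2 and 105 ± 0.853 CPM in the controls.

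TUBB2A (ENSG00000137267, chr6:3153669-3157526, minus strand), a beta isotype abundant in brain, had 26.58, 24.24 and 26.92 CPM in ActD, 52.07, 59.27 and 59.26 CPM in Pol1, and 37.73, 41.64 and 41.54 CPM in Pol2, against 46.29, 52.81 and 43.87 CPM in the controls. ActD and Pol2 libraries lay below the controls, while Pol1 overlapped them. It was lower in ActD at 54.3% of the control level (-0.88 ± 0.08, adjusted p = 5.05e-09), where mitochondrial scaling turned it to 0.03. It was lower in Pol2 (-0.24 ± 0.08, adjusted p = 0.0124) and higher in Pol1 (0.26 ± 0.08, adjusted p = 0.0111). The Pol2 call was lost without Pol2 replicate 1 (-0.20), without control replicate 2 (-0.16), with library totals (-0.12), with DESeq2's size factors (-0.19) and with DESeq2's test (-0.19). The Pol1 call was lost without Pol1 replicate 2 (0.22), Pol1 replicate 3 (0.22) or control replicate 3 (0.20), and with DESeq2's test (0.23, adjusted p = 0.0512).

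TUBB2B (ENSG00000137285, chr6:3224261-3231730, minus strand), its near copy, had no counts in ActD and at most 10.85 estimated counts in any library, so it was not tested and no fold is given. The summed level of both copies was 25.92 ± 1.46 CPM in ActD, 56.95 ± 4 CPM in Pol1, 40.65 ± 1.9 CPM in Pol2 and 47.71 ± 4.61 CPM in the controls (SD, n = 3 each).

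TUBB3 (ENSG00000258947, chr16:89921392-89938761, plus strand), the beta isotype used as a marker of neurons and also made by many carcinoma lines, had the highest fold change of any member against the controls. It had 112.3, 111 and 117.4 CPM in ActD, 185.4, 186.6 and 183.2 CPM in Pol1, and 75.06, 80.08 and 77.53 CPM in Pol2, against 85.95, 94.6 and 88.31 CPM in the controls. The groups did not overlap, and the Pol1 libraries stood far above the rest with an SD of 1.71 CPM. TUBB3 was 206% of the control level in Pol1 (1.05 ± 0.05, adjusted p = 6.55e-13) and 127% in ActD (0.34 ± 0.05, adjusted p = 7.18e-06), and both stayed higher under each scaling. In Pol2 it was lower (-0.21 ± 0.05, adjusted p = 0.00173), a call lost with library totals (-0.09, adjusted p = 0.174). TUBB3 shares 1584 exonic bases on the same strand with ENSG00000198211, which had 0.898 ± 0.427 CPM in ActD, 0 CPM in Pol1, 0.553 ± 0.957 CPM in Pol2 and 0.376 ± 0.586 CPM in the controls (SD, n = 3 each). Of 5 neural markers, ELAVL3 stayed at or below 0.147 CPM on average in each group, and their sum was 22.8 to 24.6 CPM in ActD, 11 to 12.7 CPM in Pol1, 13.1 to 14.4 CPM in Pol2 and 14.4 to 15 CPM in the controls. MAP2, which made up most of that sum, was higher in ActD (0.79 ± 0.13, adjusted p = 1.35e-05) and lower in Pol1 (-0.41 ± 0.13, adjusted p = 0.0166) and Pol2 (-0.39 ± 0.14, adjusted p = 0.0173). With mitochondrial scaling none of the 4 neural markers tested was called in Pol1. GFAP was called higher in Pol2, at 1.43 ± 1.18 CPM against 0.425 ± 0.307 CPM in the controls (adjusted p = 0.0222). These levels are low and the libraries overlapped, at 0.938, 2.78 and 0.58 CPM in Pol2 and 0.156, 0.36 and 0.759 CPM in the controls.

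**Figure D2:**
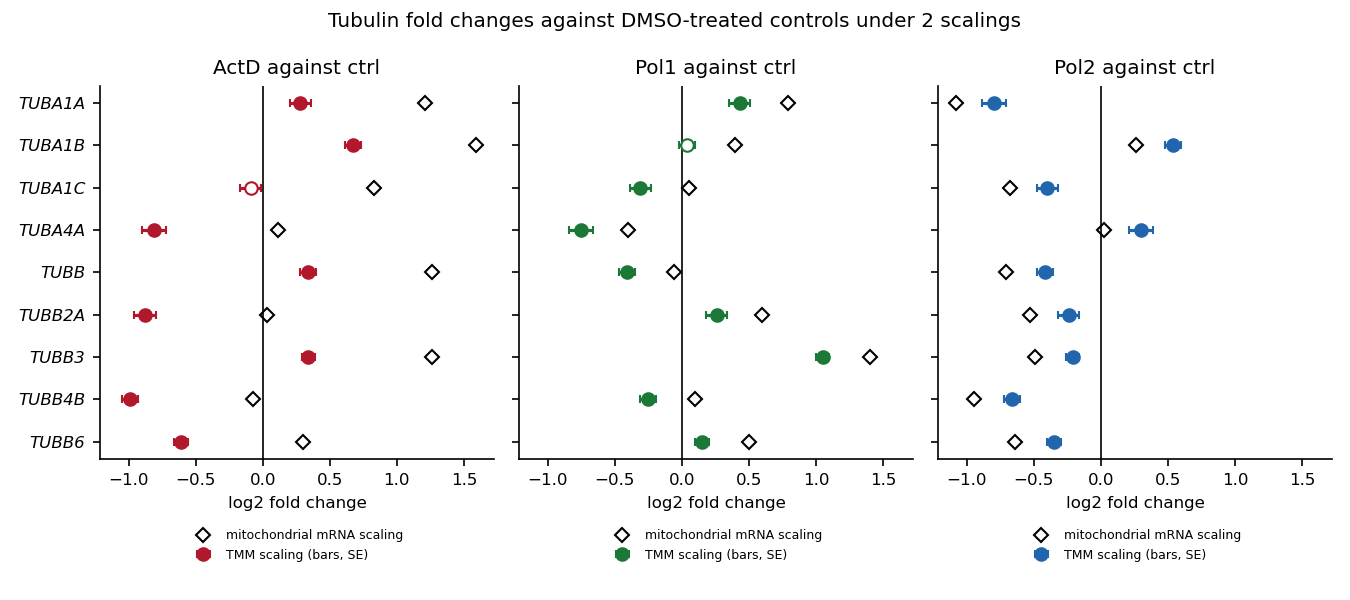
Log2 fold change (horizontal axis) of the 9 tested tubulin genes against ctrl in ActD, Pol1 and Pol2. Circles give TMM scaling with the SE of the fit (open where not called), and diamonds give the scaling to mitochondrial mRNAs, which moves all genes of a comparison together. In ActD every diamond lies to the right of its circle, and TUBA1C, TUBA4A, TUBB2A and TUBB6 cross 0, as TUBA1C and TUBB4B do in Pol1.

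Ratios between members within a library do not move with the scaling between libraries, so they show how the tubulin mRNA pool was composed. Per kb of merged exons, the summed alpha members were 0.7735, 0.7829 and 0.7889 times the summed beta members in ActD, 0.6573, 0.6699 and 0.6542 times in Pol1, and 0.9186, 1.053 and 0.956 times in Pol2, against 0.5671, 0.5809 and 0.5661 times in the controls. Every treated library was above every control library and no groups overlapped. The order of groups was the same by the length of one coding transcript per gene, with means of 1.224 in ActD, 0.977 in Pol1, 1.527 in Pol2 and 0.8654 in the controls. No p is given for sums over members.

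The beta sum, in CPM, was 2659 ± 21.8 in ActD, 2091 ± 27.3 in Pol1, 1819 ± 26.2 in Pol2 and 2487 ± 227 in the controls. The alpha sum was 2451 ± 26.3 in ActD, 1744 ± 26.4 in Pol1, 2193 ± 130 in Pol2 and 1834 ± 199 in the controls (SD, n = 3 each). On this scale the Pol2 libraries had an alpha sum above every control library, with TUBA1B its largest member, and a beta sum below every control library. All members together took 0.461 to 0.473% of the library total in ActD, 0.389 to 0.394% in Pol1, 0.409 to 0.465% in Pol2 and 0.413 to 0.455% in the controls.

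**Figure D3:**
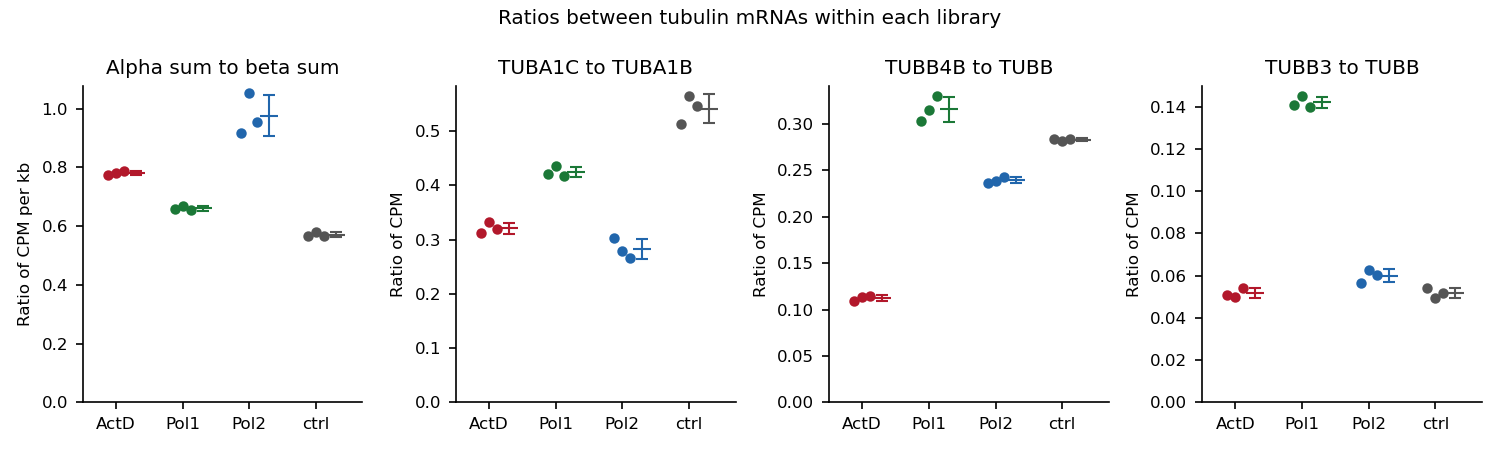
Ratios between tubulin mRNAs within each library (points; mean and SD of 3 libraries beside them): the summed alpha over the summed beta members in CPM per kb, and TUBA1C over TUBA1B, TUBB4B over TUBB and TUBB3 over TUBB in CPM. The alpha to beta ratio is highest in Pol2, the TUBB4B to TUBB ratio lowest in ActD, and the TUBB3 to TUBB ratio highest in Pol1.

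The beta pool shifted towards TUBB in ActD and away from it in Pol1. TUBB made up 78.7 ± 0.465% of the summed beta CPM per kb in ActD, 56.2 ± 0.974% in Pol1, 64.6 ± 0.475% in Pol2 and 62.5 ± 0.381% in the controls. TUBB4B made up 14.1 ± 0.352% in ActD, 28.3 ± 0.762% in Pol1, 24.7 ± 0.164% in Pol2 and 28.1 ± 0.082% in the controls. TUBB3 made up 3.09 ± 0.117% in ActD, 6.05 ± 0.153% in Pol1, 2.93 ± 0.132% in Pol2 and 2.45 ± 0.105% in the controls (SD, n = 3 each). The TUBB share did not overlap between groups, and that of TUBB4B overlapped only between Pol1 and the controls. The size of these shares, and of the alpha shares below, depends on the merged exon length used. By the length of one coding transcript, TUBB3 had 105 ± 0.969 CPM per kb in Pol1, against 41.8 ± 0.387 by merged exons.

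Relative to TUBB alone, TUBB3 stood at 0.0501 to 0.0543 times its CPM in ActD and 0.140 to 0.145 times in Pol1 and 0.0566 to 0.0626 times in Pol2, against 0.0493 to 0.0544 times in the controls. The ActD libraries lay within the control range, and the Pol1 and Pol2 libraries above it. TUBB4B was 0.109 to 0.115 times TUBB in ActD, 0.303 to 0.33 times in Pol1 and 0.237 to 0.243 times in Pol2, against 0.282 to 0.284 times in the controls. Here ActD and Pol2 were lower and Pol1 was higher, with no overlap between groups.

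Among the alpha members, TUBA1B took a larger share in every treated group. It made up 77.5 ± 0.22% of the summed alpha CPM per kb in ActD, 71.4 ± 0.317% in Pol1, 79.1 ± 0.806% in Pol2 and 66.9 ± 0.813% in the controls. TUBA1C made up 19.2 ± 0.545% in ActD, 23.4 ± 0.432% in Pol1, 17.2 ± 0.931% in Pol2 and 28.0 ± 1.04% in the controls (SD, n = 3 each). Since these 2 genes share long identical runs, their ratio also depends on how the quantifier divided reads between them.

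**Figure D4:**
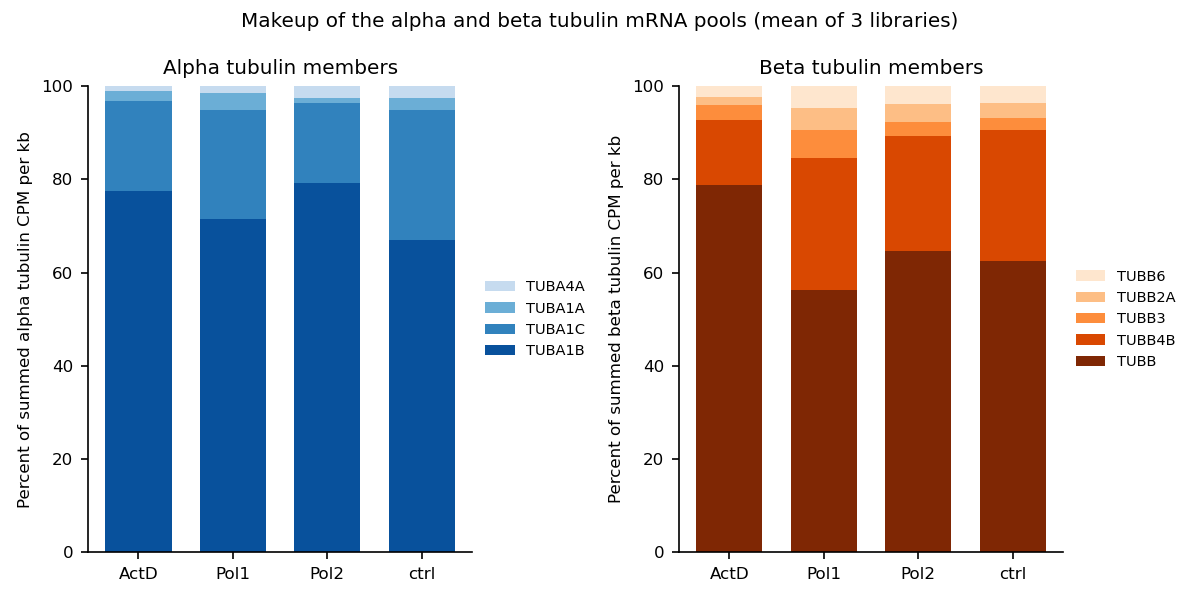
Stacked mean shares (vertical axis, percent of summed CPM per kb of merged exons) of the alpha members (left) and the beta members (right) in ActD, Pol1, Pol2 and ctrl, 3 libraries each. TUBB reaches 78.7% of the beta pool in ActD, and TUBA1B reaches 79.1% of the alpha pool in Pol2.

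By level per kb of merged exons, TUBB was highest in ActD (653 ± 8.53 CPM per kb), Pol1 (388 ± 3.52) and the controls (517 ± 50.7), while in Pol2 TUBA1B (460 ± 29.8) stood above TUBB (386 ± 7.73). The order in the controls went on with TUBA1B, TUBB4B, TUBA1C, TUBB6, TUBB2A, TUBB3, TUBA1A, TUBA4A and TUBB2B. Within it TUBB6 and TUBB2A, at 29.3 ± 0.899 and 27.6 ± 2.68 CPM per kb, did not differ beyond their spread, nor did TUBA1A and TUBA4A, at 12.4 ± 0.887 and 11.7 ± 0.336 CPM per kb. TUBB4B ranked above TUBA1C in Pol1, Pol2 and the controls, and below it in ActD, at 117 ± 2.88 against 124 ± 4.66 CPM per kb. With the length of one coding transcript per gene, TUBA1B came first in each group, so the order of TUBB and TUBA1B depends on the length used. So does that of TUBB6, TUBB3 and TUBB2A, which by that length had 58.5 ± 1.79, 50.7 ± 2.53 and 29.9 ± 2.9 CPM per kb in the controls.

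The treatments were also compared with each other. Mitochondrial scaling moved the median of all genes by 0.53 in ActD against Pol1, by 1.20 in ActD against Pol2 and by 0.64 in Pol1 against Pol2, and the higher share of calls to 72.6%, 74.9% and 74.3%, where TMM gave 43.4%, 43.9% and 46.7%. Library totals moved the median by -0.16, -0.24 and -0.08, and the higher share of calls in ActD against Pol2 to 32.2%. Between ActD and Pol1, 3 members were higher in ActD and 4 lower, where 24.4% of all genes tested were higher and 31.8% lower. TUBB (0.75 ± 0.06, adjusted p = 2.03e-10), TUBA1B (0.63 ± 0.06) and TUBA1C (0.22 ± 0.08) were higher in ActD. TUBB2A (-1.14 ± 0.08, adjusted p = 4.56e-11), TUBB6 (-0.76 ± 0.05), TUBB4B (-0.74 ± 0.06) and TUBB3 (-0.70 ± 0.05) were lower in ActD under each scaling. With mitochondrial scaling TUBB6, TUBB4B and TUBB3 no longer passed, at -0.20, -0.18 and -0.14. The TUBA1C call was lost without ActD replicate 2 (0.19), ActD replicate 3 (0.22), Pol1 replicate 1 (0.20) or Pol1 replicate 3 (0.22), and with library totals (0.06). TUBA1A at -0.15 ± 0.08 and TUBA4A at -0.06 ± 0.09 did not pass. TUBA1A passed without ActD replicate 1 (-0.23) and with library totals (-0.31), and passed as higher, at 0.41, with mitochondrial scaling. TUBA4A was 0.02 without ActD replicate 2, and passed as higher, at 0.51, with mitochondrial scaling. The median of the members was -0.15, beside -0.12 over all genes. With mitochondrial scaling 5 members were higher in ActD and 1 lower (median 0.41).

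Between ActD and Pol2, 4 members were higher in ActD and 4 lower, where 31.1% of all genes tested were higher and 39.8% lower. TUBA1A (1.08 ± 0.09, adjusted p = 3.77e-10), TUBB (0.76 ± 0.06, adjusted p = 1.9e-10), TUBB3 (0.55 ± 0.05) and TUBA1C (0.31 ± 0.08) were higher in ActD. TUBA4A (-1.11 ± 0.09, adjusted p = 5.24e-10), TUBB2A (-0.64 ± 0.08), TUBB4B (-0.33 ± 0.06) and TUBB6 (-0.26 ± 0.05) were lower in ActD, and mitochondrial scaling turned these to 0.08, 0.56, 0.87 and 0.95. TUBA1B was 0.13 ± 0.06 with an adjusted p of 0.0672, and was -0.11 with library totals. It passed without Pol2 replicate 2 (0.19, adjusted p = 0.00806), with mitochondrial scaling (1.32, adjusted p = 7.55e-17), with no filter on low counts (0.32, adjusted p = 6.04e-07) and with only these 2 groups fitted (0.13, adjusted p = 0.0228). The TUBA1C call was lost with library totals (0.07), and those of TUBB4B and TUBB6 were lost with no filter on low counts (-0.14 and -0.07). The median of the members was 0.13, beside -0.18 over all genes. With mitochondrial scaling 8 members were higher in ActD and 0 lower (median 1.32).

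Between Pol1 and Pol2, 5 members were higher in Pol1 and 2 lower, where 29.1% of all genes tested were higher and 33.2% lower. TUBB3, at 239% of the Pol2 level (1.25 ± 0.05, adjusted p = 2.17e-14), and TUBA1A, at 235% (1.23 ± 0.08, adjusted p = 5.86e-11), were the furthest apart, followed by TUBB2A (0.50 ± 0.08), TUBB6 (0.50 ± 0.05) and TUBB4B (0.41 ± 0.06). TUBA4A, at 48.3% of the Pol2 level (-1.05 ± 0.09, adjusted p = 1.59e-09), was lower in Pol1. TUBA1B was lower too (-0.50 ± 0.06, adjusted p = 3.55e-07), but mitochondrial scaling turned it to 0.13. TUBB, at 0.01 ± 0.06 (adjusted p = 0.909), and TUBA1C, at 0.09 ± 0.08 (adjusted p = 0.345), did not pass. TUBB was -0.03 without Pol2 replicate 2, -0.06 with DESeq2's size factors and -0.07 with library totals. With mitochondrial scaling both passed as higher in Pol1, TUBB at 0.65 (adjusted p = 1.59e-06) and TUBA1C at 0.73 (adjusted p = 5.47e-07), and TUBA1C also passed with no filter on low counts (0.18, adjusted p = 0.0137). The median of the members was 0.41, beside -0.08 over all genes. With mitochondrial scaling 7 members were higher in Pol1 and 1 lower (median 1.05).

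TUBB2A, TUBB4B and TUBB6 had close patterns over the 12 libraries, as did TUBA1C and TUBB. As the distance between log2 CPM centred on each gene's mean, TUBB4B and TUBB6 were 0.59 apart, TUBB2A and TUBB6 0.59, TUBA1C and TUBB 0.74 and TUBB2A and TUBB4B 0.77, while TUBA1A and TUBA4A were 3.26 apart. The 250 bases before the annotated start of TUBB2A, TUBB4B and TUBB6 are shown with those of TUBB3, which stood apart in Pol1, from RefSeq on GRCh38.p14. Capitals mark CCAAT, the GC box GGGCGG and TATAAA on either strand. The TUBB2A window is chr6:3157545-3157794 on the minus strand, that of TUBB4B is chr9:137241037-137241286, that of TUBB6 is chr18:12307991-12308240 and that of TUBB3 is chr16:89923092-89923341, these 3 on the plus strand.
TUBB2A: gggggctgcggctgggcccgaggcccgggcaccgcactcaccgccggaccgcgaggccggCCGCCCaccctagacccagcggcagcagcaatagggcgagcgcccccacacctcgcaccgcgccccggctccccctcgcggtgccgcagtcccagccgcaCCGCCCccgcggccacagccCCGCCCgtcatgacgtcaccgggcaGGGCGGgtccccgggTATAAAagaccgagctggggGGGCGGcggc
TUBB4B: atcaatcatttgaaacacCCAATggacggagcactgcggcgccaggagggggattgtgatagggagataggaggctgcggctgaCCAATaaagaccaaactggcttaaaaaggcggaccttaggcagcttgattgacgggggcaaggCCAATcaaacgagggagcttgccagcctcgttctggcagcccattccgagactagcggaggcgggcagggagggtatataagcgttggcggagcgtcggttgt
TUBB6: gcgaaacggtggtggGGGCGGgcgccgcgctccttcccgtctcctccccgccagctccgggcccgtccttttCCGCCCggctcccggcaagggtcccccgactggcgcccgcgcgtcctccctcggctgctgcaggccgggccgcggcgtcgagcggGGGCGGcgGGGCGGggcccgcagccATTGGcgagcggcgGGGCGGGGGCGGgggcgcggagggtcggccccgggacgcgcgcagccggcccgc
TUBB3: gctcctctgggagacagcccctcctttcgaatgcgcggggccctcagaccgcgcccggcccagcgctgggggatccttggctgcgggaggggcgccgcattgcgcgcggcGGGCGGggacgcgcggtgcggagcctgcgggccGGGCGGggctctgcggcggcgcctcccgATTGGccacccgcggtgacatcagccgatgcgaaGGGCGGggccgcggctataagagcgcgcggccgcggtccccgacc

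These windows differ in the letters marked, and their part in the mRNA patterns was not tested. TUBB4B holds 3 CCAAT and no GC box, TUBB6 holds 1 CCAAT and 6 GC boxes, TUBB2A holds 5 GC boxes and 1 TATAAA, and TUBB3 holds 1 CCAAT and 3 GC boxes. Adjacent matches in TUBB6 run together. Of 35116 annotated promoters, 32.0% hold a CCAAT, 42.6% a GC box and 10.7% a TATAAA in a window of this length. A match is a description of letters and not a bound site.

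Outside the members, the genes with the patterns most like TUBA1B were CD81 (a cell surface tetraspanin), PLPBP (a pyridoxal phosphate carrier) and P4HB (a protein disulfide isomerase), at distances of 0.19, 0.24 and 0.25 among 9769 candidates with a median of 1.63. CD81 had 251 ± 6.58 CPM in ActD, 162 ± 2.82 CPM in Pol1 and 212 ± 8.82 CPM in Pol2, against 154 ± 17.5 CPM in the controls. Among those most like TUBB were IMPDH1 (an enzyme of guanine nucleotide synthesis) and SSU72 (a phosphatase of the RNA polymerase II tail), at 0.20 and 0.24 against a median of 1.39. IMPDH1 had 114 ± 4.54 CPM in ActD, 65.4 ± 4.05 CPM in Pol1 and 65.7 ± 1.08 CPM in Pol2, against 87.1 ± 6.41 CPM in the controls.

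Genes that act on tubulin were counted by function. Of all genes tested, 24.9% were higher and 28.5% lower in ActD, 20.6% and 18.6% in Pol1, and 33.2% and 28.2% in Pol2. Of all genes called with mitochondrial scaling, 85.2% were higher in ActD, 85.1% in Pol1 and 38.6% in Pol2. These shares stand beside the list counts below. Tubulin folding genes, which include the CCT chaperonin, prefoldin and the tubulin cofactors, were mostly higher in ActD, with 16 of 21 higher and 1 lower (median 0.43), against 8 higher and 2 lower in Pol1 (0.11) and 7 higher and 7 lower in Pol2 (0.11). ARL2, a small GTPase of the cofactor complex, had 35.5 CPM in ActD and 17.2 CPM in the controls (1.05 ± 0.09, adjusted p = 3.68e-09). TBCC, the cofactor that helps release the finished dimer, was the exception, at 1.67 CPM in ActD and 14.1 CPM in the controls (-3.05 ± 0.17, adjusted p = 1.49e-12). In Pol2 TBCC went the other way, at 27.1 CPM (0.94 ± 0.13, adjusted p = 2.64e-06). With mitochondrial scaling 20 folding genes were higher and 1 lower in ActD, 16 and 0 in Pol1, and 1 and 8 in Pol2.

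Enzymes that modify tubulin, such as ligases, deacetylases and carboxypeptidases, were higher for 13 of 16 genes in ActD (median 0.39), 9 in Pol1 (0.32) and 3 in Pol2 (-0.25), and lower for 2, 3 and 7. TTLL3, a glycylase, was 219% of the control level in Pol1 (1.13 ± 0.11, adjusted p = 8.21e-08) and 391% in Pol2 (1.97 ± 0.11, adjusted p = 1.73e-11). TTLL12 was 49.4% of the control level in Pol1 (-1.02 ± 0.06, adjusted p = 1.76e-11). TTLL4, a glutamylase, was lower in ActD (-1.13 ± 0.06), in Pol1 (-0.57 ± 0.06) and in Pol2 (-0.92 ± 0.06). With mitochondrial scaling 14 of these enzymes were higher and 0 lower in ActD, 11 and 1 in Pol1, and 2 and 8 in Pol2. TTLL4 was thus no longer called lower in ActD under that scaling.

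Microtubule nucleation genes were higher for 11 of 18 in ActD and lower for 4 (median 0.30), higher for 2 and lower for 5 in Pol1 (-0.05), and higher for 5 and lower for 7 in Pol2 (-0.13). HAUS6, of the augmin complex that starts new microtubules on the side of old ones, was at 53.7% of the control level in Pol1 and 46.0% in Pol2. HAUS8 of the same complex was at 25.0% in ActD (-2.00 ± 0.12, adjusted p = 1.11e-11) and 43.3% in Pol2. With mitochondrial scaling 16 nucleation genes were higher and 2 lower in ActD, 6 and 1 in Pol1, and 0 and 10 in Pol2.

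Genes of microtubule dynamics and severing split the degron lines, with 17 of 24 higher and 2 lower in Pol1 (median 0.28) against 5 higher and 16 lower in Pol2 (-0.27). In ActD 15 were higher and 7 lower (0.32). MAPRE3, a plus-end binding protein, was 310% of the control level in Pol1 (1.63 ± 0.11, adjusted p = 1.92e-10), and KATNAL1, a severing enzyme, was 179%. CAMSAP1, which binds minus ends, was 43.1% in Pol2 (-1.21 ± 0.06, adjusted p = 3.46e-13), and MAP1S, a microtubule-associated protein, was 14.6% in ActD (-2.77 ± 0.12, adjusted p = 8.15e-13). Compared directly, 18 of the 24 were higher in Pol1 than in Pol2 and 3 lower (median 0.66). Of all genes tested, 29.1% were higher and 33.2% lower in that comparison. With mitochondrial scaling 22 of the 24 were higher in it and 0 lower (median 1.31), where 74.3% of all genes called were higher. SPAST, another severing enzyme, was at 41.9 CPM in Pol1 and 16.1 CPM in Pol2 (1.38 ± 0.08, adjusted p = 2.98e-12). With mitochondrial scaling 19 of the 24 were higher and 2 lower in ActD, 20 and 0 in Pol1, and 0 and 16 in Pol2. Under that scaling the medians of these 4 lists in Pol2 lay between -0.56 and -0.19, that of folding genes turning negative, and nucleation genes in Pol1 turned to 0.31.

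**Figure D5:**
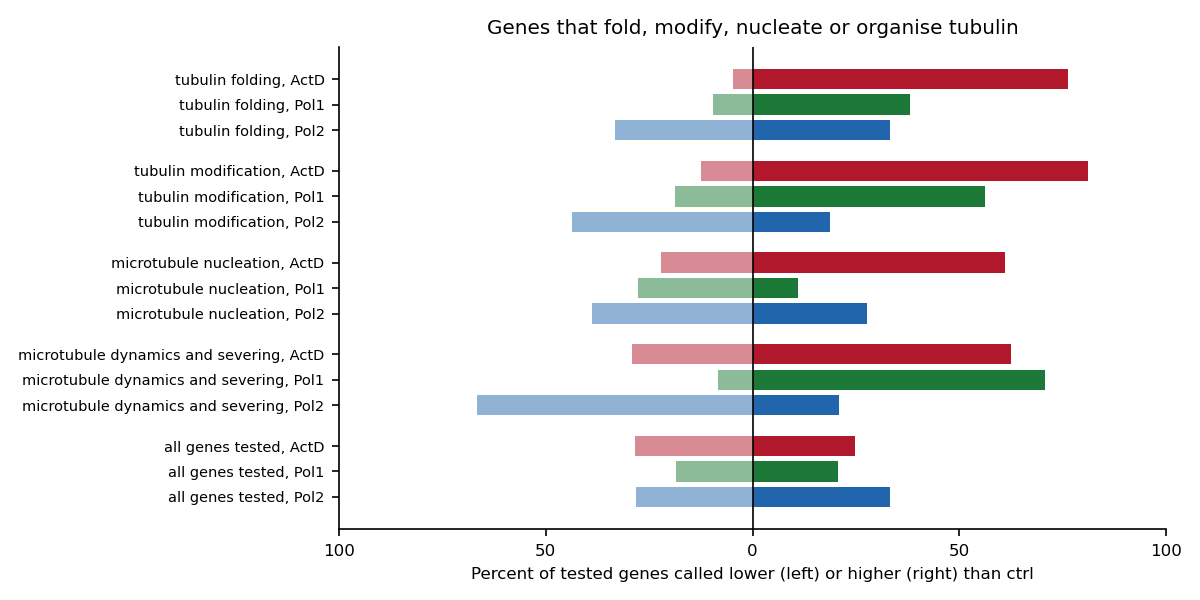
Percent of tested genes called lower (left, pale) or higher (right) than ctrl in ActD, Pol1 and Pol2, for 4 gene lists around tubulin and for all genes tested. Of folding genes 16 of 21 were higher in ActD, and of dynamics and severing genes 16 of 24 were lower in Pol2 under TMM scaling, and the Pol2 folding and Pol1 nucleation medians change sign with mitochondrial scaling.

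Of the 3 genes of tubulin mRNA autoregulation, 2 were higher in ActD and 0 lower, 1 was higher in Pol1 and 0 lower, and 0 were higher in Pol2 and 2 lower. Over all genes tested, 24.9% were higher and 28.5% lower in ActD, 20.6% and 18.6% in Pol1, and 33.2% and 28.2% in Pol2. With mitochondrial scaling 3 were higher and 0 lower in ActD, 1 and 0 in Pol1, and 0 and 3 in Pol2. TTC5 had 34.6 CPM in ActD, 28.4 CPM in Pol1 and 27.2 CPM in Pol2, against 29.4 CPM in the controls, and passed in ActD (0.23 ± 0.07, adjusted p = 0.01) but not in Pol1 or Pol2 (adjusted p = 0.602 and 0.186). CNOT11 was higher in ActD (0.34 ± 0.06, adjusted p = 6.36e-05) and lower in Pol2 (-0.47 ± 0.06, adjusted p = 2.04e-06). SCAPER had 20 CPM in Pol1 and 7.85 CPM in Pol2, against 13 CPM in the controls, higher in Pol1 (0.62 ± 0.11, adjusted p = 5.21e-05) and lower in Pol2 (-0.73 ± 0.12, adjusted p = 1.43e-05).

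Of 12 other tubulin genes 8 were tested. In ActD 2 were higher and 4 lower (median -0.27), in Pol1 2 higher and 1 lower (-0.13), and in Pol2 1 higher and 3 lower, beside 24.9% and 28.5%, 20.6% and 18.6%, and 33.2% and 28.2% of all genes tested. Mitochondrial scaling turned the ActD and Pol1 medians to 0.62 and 0.22, with 4 higher and 1 lower in ActD, 3 higher and 0 lower in Pol1, and 0 higher and 3 lower in Pol2. TUBB1 changed most of the 8 in each group. It had 0.29 CPM in ActD, 0.711 CPM in Pol1 and 1.07 CPM in Pol2, against 2.01 CPM in the controls. It was lower in ActD (-2.75 ± 0.42, adjusted p = 9.26e-06), Pol1 (-1.49 ± 0.38, adjusted p = 0.00349) and Pol2 (-0.9 ± 0.38, adjusted p = 0.0482). TUBA3D, at 0.336 CPM, was also lower in ActD (-1.38 ± 0.55, adjusted p = 0.0398). These levels are low. TUBB4A, a beta isotype of brain, had 61.8 CPM in ActD and 26 CPM in the controls (1.25 ± 0.14, adjusted p = 3.64e-06), and 19.3 CPM in Pol2 (-0.43 ± 0.15, adjusted p = 0.0245). TUBG2, a gamma tubulin of the nucleation complex, was 169% of the control level in Pol1 (0.76 ± 0.13, adjusted p = 5.05e-05). TUBE1, the epsilon tubulin of centrioles, was 59.3% in Pol2 (-0.75 ± 0.10, adjusted p = 9e-07). Further TUBA and TUBB genes, taken as pseudogenes by class or name or because GENCODE 29 lacks them, were 51 in number. They held 0.235 to 0.615% as many counts as the members in any library.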

How the data were processed

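The deposited table gives estimated counts per gene, made by the authors for 12 libraries of a stranded, ribosomal RNA-depleted total RNA kit, per the labels' protocols; most member values are not whole. Among tools in the submitters' processing notes are RSEM 1.3.3, STAR, DESeq2 1.44.0 and HTSeq 2.0.2, with build GRCh38 and no link to a step. For the annotation release and strand setting, the answer is not given in the sources used here. Groups come from the sample titles. Counts were rounded, filtered with filterByExpr (23593 of 63241 genes), scaled by TMM and tested with edgeR 4.0.16 in R 4.3.3: a single robust quasi-likelihood fit of all 12 libraries with 8 residual degrees of freedom, 6 contrasts, and Benjamini-Hochberg adjustment over all genes tested (threshold 0.05). Fold changes are log2 with their standard error (SE). Totals ranged from 11289272 to 27394059 counts per library, so TUBB rested on 15455 or more and TUBA1A on 258 or more.

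Symbols came from a gene name table, coordinates and exon lengths from GENCODE 29 on GRCh38. CPM per kb divide by merged exon length. The members and lists were chosen with earlier results of these data known. All 10 members are named; the rule also names, for the alpha and the beta member with the highest mean CPM, the 3 protein-coding genes (average log2 CPM of 3 or more) with the nearest pattern (1 of these is not reported here), and up to 3 called genes with the largest change per list and comparison; TTC5, POLR1A, POLR2A and single markers are named beside it. DESeq2 1.42.0, 3 other scalings, no filter, a replicate block, fits of 2 groups and leaving out each library were the alternatives; per-kb lengths, TUBA1B with its antisense gene and within-library ratios were added after seeing the data. The fit was also tested on simulated data, with levels and spread taken from these libraries. Only a small part of the genes was changed there, so it says nothing on scaling where many genes move. Same-numbered libraries of different groups did not deviate together (r of -0.06 to 0.04), so numbers were not taken as pairs.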

Additional observations from a re-analysis of the deposited data

How the results depend on the processing

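Over 7 alternatives and 6 comparisons the count of members called stayed within 1.5 times, except in ActD against the controls with mitochondrial scaling, where 5 were called in place of 8. The count over all genes stayed within 1.5 times in every one. With the replicate block, 54 of 54 member results kept their direction and side of the threshold, and 8 members were called in ActD, 8 in Pol1 and 9 in Pol2 against the controls, as without it. Of the 54, 53 did so with only the 2 groups compared, 50 with DESeq2's size factors, 49 with DESeq2's test, 48 with no filter on low counts, 45 with library totals and 30 with mitochondrial scaling.

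Mitochondrial scaling turned 13 member values. Against the controls these were TUBA1C (0.83), TUBA4A (0.11), TUBB2A (0.03) and TUBB6 (0.30) in ActD, and TUBA1C (0.05) and TUBB4B (0.10) in Pol1. Between treatments they were TUBA1A (0.41) and TUBA4A (0.51) in ActD against Pol1, TUBA4A (0.08), TUBB2A (0.56), TUBB4B (0.87) and TUBB6 (0.95) in ActD against Pol2, and TUBA1B (0.13) in Pol1 against Pol2. The cause was not tested.

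The other values that turned had not passed the test. TUBB in Pol1 against Pol2 was -0.06 with DESeq2's size factors, -0.06 with DESeq2's test and -0.07 with library totals. TUBA4A in ActD against Pol1 was 0.01 with DESeq2's size factors, 0.01 with DESeq2's test and 0.04 with no filter, and TUBA1B in ActD against Pol2 was -0.11 with library totals. Leaving out a library, TUBA1C in ActD ranged from -0.18 to 0.02 and TUBA1B in Pol1 from -0.01 to 0.12 against the controls, TUBA4A in ActD against Pol1 from -0.14 to 0.02 and TUBB in Pol1 against Pol2 from -0.03 to 0.03. Counted with TUBA1B-AS1, chosen after seeing the data, TUBA1B in ActD was 0.52 against the controls in place of 0.67.

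With 3 dishes per group, no outlier was sought. Reads shared by TUBA1A, TUBA1B and TUBA1C, or by TUBB2A and TUBB2B, were divided by an estimate whose error is not in the SDs. TUBB2B, at most 10.85 counts, could not be compared at this depth. The labels name no added RNA standard, so amounts per cell are not known.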
